A study of Mus musculus with 9 samples.

Results

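The 9 genes examined here make, carry, sense or break down retinoic acid: Aldh1a1, Aldh1a2, Crabp1, Crabp2, Rara, Rarb, Rarg, Rxra and Cyp26b1. They were chosen by name, with earlier results of these data known, out of 21853 protein-coding genes. All peaks that touched the gene body or the 50 kb on each side of it were collected and split into promoter peaks (within 1 kb of the start of a protein-coding transcript), intragenic peaks and flanking peaks. Primary muscle cells were isolated from the oviducts of WT mice at Day 2 of pregnancy, aged 8-12 weeks, kept in culture for some hours, and assayed by ChIC-Seq, a method in which an antibody carries protein A-MNase to the chromatin and the DNA it cuts free is sequenced. There were 3 samples for H3K27ac, a mark of active promoters and enhancers, 3 for H3K4me1, a mark of enhancers and of the edges of promoters, and 3 for IgG, which entered as the background that peaks were called against, with no peak lists of their own. Per the labels, all samples had the same genotype, stage and preparation protocol, so the comparisons are between marks, between genes and between replicate lists, and no expression was measured. The labels do not say whether the replicates came from separate animals or cultures, so a p-value measures the spread between these samples, which may be technical.

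Retinoic acid is made from vitamin A in 2 oxidation steps, the second of which is carried out by the retinaldehyde dehydrogenases of the ALDH1A family. Small binding proteins carry it within the cell, and enzymes of the CYP26 family inactivate it. The retinoic acid receptors bind DNA as heterodimers with retinoid X receptors, classically at direct repeats of a short half-site, and recruit corepressors without ligand and coactivators with it. In the female reproductive tract the pathway is known for patterning the ducts from which oviduct and uterus arise.

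Promoter peaks were seen at genes listed as markers of more than 1 cell type. Among 8 smooth muscle genes, the promoters of Acta2, Des and Smtn had peaks in all 6 replicate lists, whereas Myh11, the smooth muscle myosin heavy chain, had a peak in 0 H3K27ac lists and 1 H3K4me1 list and was singled out after its values were seen. The calls pooled over the 3 libraries of each mark both had a peak at the Myh11 promoter. Tagln had a peak in 2 H3K27ac and 3 H3K4me1 lists, Cnn1 in 1 and 2, and Myocd and Lmod1 each in 1 and 1. Among 6 fibroblast genes, such as Col1a1 and Dcn, 5 had peaks in all 6 lists. Of 7 epithelial, 4 mesothelial, 4 endothelial and 5 blood cell genes 0 did so, and 2, 3, 0 and 4 of them had no promoter peak in any of the 6 lists. Over all protein-coding genes 24.3% had a promoter peak in all 6 lists and 32.8% in none, and these short lists were not tested against those shares. Single genes of the last lists were marked, as seen after their values were known: Wt1, a mesothelial gene, had H3K27ac in 3 lists and H3K4me1 in 2, the blood cell gene Ptprc had H3K27ac in 3, and the epithelial gene Krt8 had H3K4me1 in 3. A mark at a retinoid gene therefore cannot be assigned to the muscle cells alone, and the part of other cell types in the results below was not tested. In a mixed population, fewer cells with a mark and less of the mark per cell cannot be told apart.

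The peaks were many and their p-values were modest. The 6 replicate lists held 93684 to 152889 peaks each, called from 40551842 to 78891920 fragments against 3110985 to 3713369 IgG fragments, and covered 91.0 to 145 Mb. The median enrichment over the IgG background was 1.43 to 1.62, a ratio drawn toward 1 because 1 is added to both of its terms at pileups of this size. In the 9 gene windows the median peak had 4.90 to 7.38 times the mean coverage of its library and a −log10 p-value of 1.01 to 1.16. The 9 gene windows held 149, 125 and 116 of the H3K27ac peaks in lists 1, 2 and 3, and 164, 123 and 147 of the H3K4me1 peaks. The pooled calls, each made on the 3 libraries of a mark together, held 79 and 145. Between 7.38% and 9.76% of the peaks in the replicate lists lay at a promoter of these genes, and between 46.3% and 53.7% lay inside a gene.

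The sequence around the starts of the 3 retinoic acid receptor genes is shown first, since each holds a match to the kind of repeat that these receptors bind. A match in sequence is not a binding site, and no receptor binding was measured. The half-site AGGTCA and its variants AGTTCA as well as GGGTCA together with GGTTCA were searched on both strands as direct repeats with a spacer of 1, 2 or 5 bases. Across all genes, 205 of 21853 (0.938%) held a repeat with a 5-base spacer within 1 kb of a protein-coding start. Among the 9 genes 3 did, namely Rara, Rarb and Rarg. The stretches below are on the strand of each gene in GRCm38.p6, with the half-sites of the matched repeats in capitals. Single half-sites elsewhere are in lower case. The Rara stretch, chr11:98959957-98960076 on the plus strand, is intronic in the transcripts that span it, and its repeat begins 404 bp upstream of the most distal coding start of the gene. The Rarb sequence is the RefSeq promoter, chr14:16575427-16575726 on the minus strand, with its repeat ending 37 bp upstream of the RefSeq start and falling in an exon of 2 of the 4 GENCODE transcripts that span it. The Rarg stretch, chr15:102250766-102250885 on the minus strand, is intronic, and its repeat begins 487 bp upstream of a coding start. In Rarg another half-site lies 1 base upstream of the match, so that the same letters also hold a repeat with a 1-base spacer.
Rara: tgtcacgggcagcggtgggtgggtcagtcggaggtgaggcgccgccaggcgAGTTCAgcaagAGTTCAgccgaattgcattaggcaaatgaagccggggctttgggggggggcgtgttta
Rarb: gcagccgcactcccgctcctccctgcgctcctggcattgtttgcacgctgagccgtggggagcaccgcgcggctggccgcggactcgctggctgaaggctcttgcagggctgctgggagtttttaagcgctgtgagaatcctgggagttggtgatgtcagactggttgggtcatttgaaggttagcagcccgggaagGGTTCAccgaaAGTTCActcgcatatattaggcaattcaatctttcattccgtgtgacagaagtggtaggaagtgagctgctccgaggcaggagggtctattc
Rarg: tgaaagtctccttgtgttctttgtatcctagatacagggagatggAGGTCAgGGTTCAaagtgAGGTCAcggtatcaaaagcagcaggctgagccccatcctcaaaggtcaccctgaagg

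The 3 repeats were covered in different numbers of lists, 4 for Rarb, 3 for Rara and 0 for Rarg, and these differences were not tested. The Rarb repeat was inside a peak in H3K27ac lists 1 and 2 and in H3K4me1 lists 1 and 2. Of these peaks, 1 for H3K27ac and 0 for H3K4me1 reached a −log10 p-value of 1.3. In list 3 of each mark the nearest peak was 20736 bp and 11357 bp away, respectively, and the pooled calls of both marks covered the repeat. List 3 of both marks was called against the same IgG library, which the other lists did not use, so the replicate and the control cannot be told apart there. The Rara repeat was inside a peak in H3K27ac list 3 and in H3K4me1 lists 1 and 3, and the nearest H3K27ac peak of lists 1 and 2 was 190 and 14 bp away. The list 1 peak lay downstream of the repeat and the list 2 peak upstream of it, and here too both pooled calls covered it. The Rarg repeat was inside no peak of the 6 replicate lists, although the pooled H3K4me1 call covered it. Its nearest H3K4me1 peaks were 655, 306 and 624 bp away and its nearest H3K27ac peaks were 1617, 3085 and 843 bp away in lists 1, 2 and 3. Among the 210 distinct 5-base-spacer repeats near coding starts of all genes, 8 (3.81%) were covered in at least 2 lists of each mark, as in Rarb, and 131 (62.4%) were covered in none, as in Rarg.

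**Figure D1:**
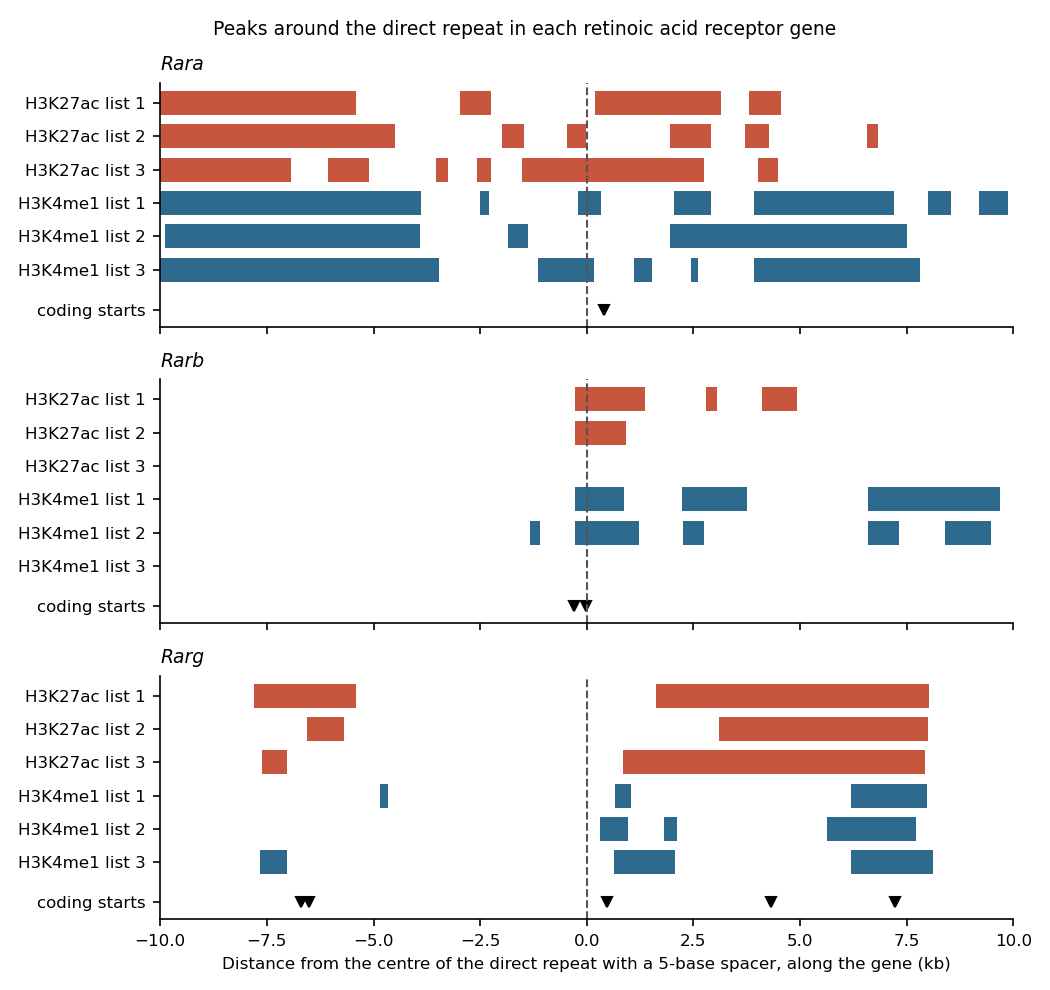
Peaks of the 6 replicate lists within 10 kb of the 5-base-spacer repeat in Rara, Rarb and Rarg, by distance along the gene (kb), with red bars for H3K27ac, blue bars for H3K4me1, black triangles for protein-coding starts and the dashed line for the repeat. The repeat lies under peaks of 4 lists in Rarb and 3 in Rara, and between the peaks of the replicate lists in Rarg.

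Other repeats were few. Within 1 kb of a coding start a repeat with a 1-base spacer occurred in 424 genes (1.94%), including Rarg and Rxra. The Rxra match, chr2:27710729-27710741, lay 146 bp downstream of an internal start and was intronic in the 5 transcripts that span it. Peaks of 0 H3K27ac lists and 2 H3K4me1 lists covered it. A 2-base spacer occurred in 436 genes (2.00%) and in 0 of the 9. Of the RefSeq promoters, 250 bases before to 50 after a start, 14 belonged to 8 of these genes. Only the Rarb promoter among the 14 held any such repeat, against 73, 88 and 32 of all 32851 promoters for spacers of 1, 2 and 5 bases.

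To find which genes had marked starts, each of the 30 distinct coding starts of the 9 genes was compared with each list. H3K27ac was present at a promoter in all 3 lists for 5 of the 9 genes (Aldh1a1, Aldh1a2, Rara, Rarg and Rxra), against 45.9% of all protein-coding genes. H3K4me1 was present in all 3 lists for 5 of 9 (Aldh1a1, Crabp2, Rara, Rarb and Rarg), against 27.9%. Aldh1a1, Rara and Rarg had peaks in all 6 lists, as did 24.3% of genes, and Crabp1 and Cyp26b1 had none in any list, as did 32.8%. Aldh1a2 had H3K27ac in all 3 lists and H3K4me1 in none (4.19% of genes), and no gene of the 9 had the reverse, H3K4me1 in all 3 and H3K27ac in none (0.513%). With 9 genes these counts describe the genes and do not set them apart from the rest. They also depended on the p-value required. Under a minimum −log10 p-value of 1.3 for each peak, H3K27ac was still found in all 3 lists at Rara, Rarg and Rxra, and H3K4me1 at Rara alone.

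**Figure D2:**
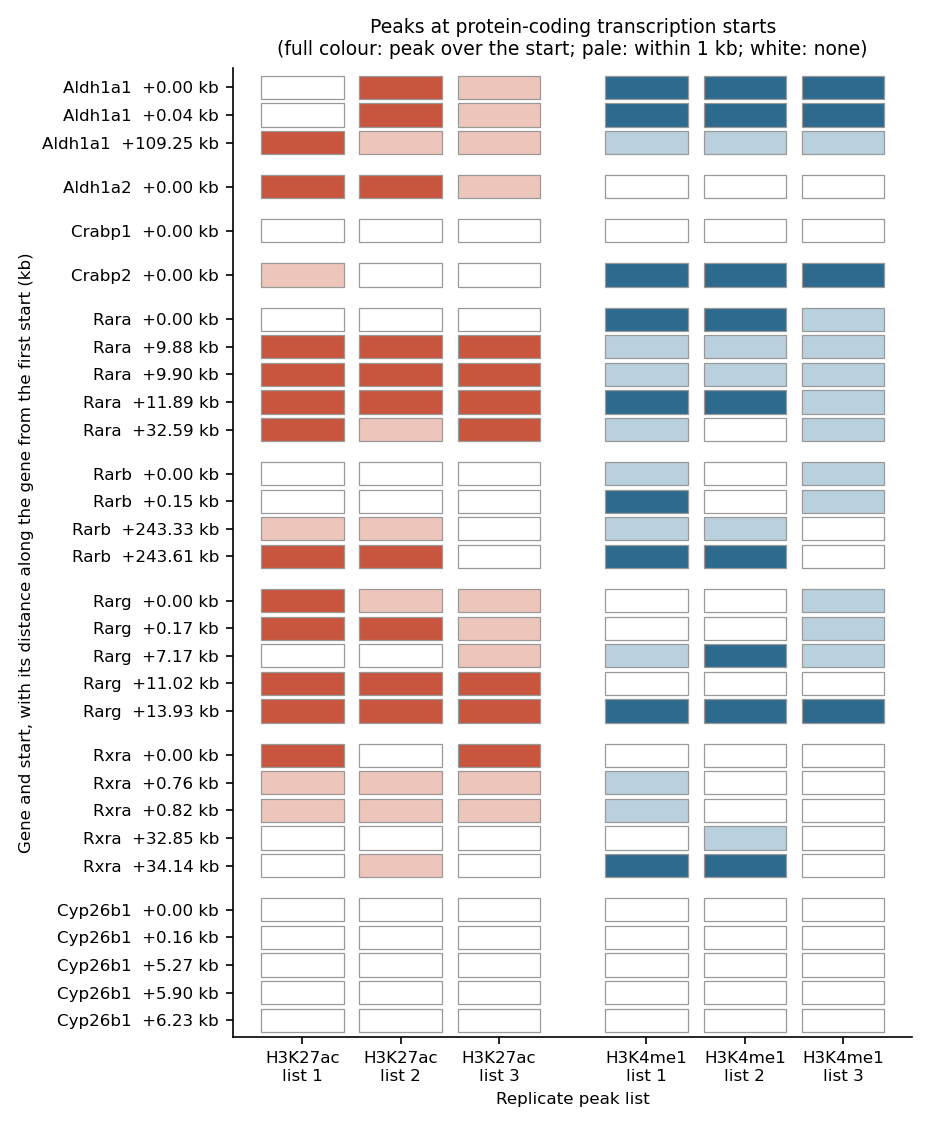
Peaks at the 30 protein-coding starts of the 9 genes (rows, with the distance in kb from the first start) in the 6 replicate lists (columns), where full colour is a peak over the start itself, pale colour a peak within 1 kb and white none. Within Rara, Rarb, Rarg and Rxra the starts of the same gene differ in which mark they carry.

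Of the enzymes that make retinoic acid, Aldh1a1 and Aldh1a2 differed at their starts. Aldh1a1 (ENSMUSG00000053279.8, chr19:20492715-20643465, plus strand) has coding starts at its 5′ end and 109246 bp downstream. The first was overlapped by H3K4me1 peaks in all 3 lists, of 3574, 2087 and 2771 bp, and had H3K27ac within 1 kb in lists 2 and 3. The downstream start had both marks within 1 kb in all 3 lists. These peaks had enrichments of 1.51 to 1.78 for H3K27ac and 1.55 to 1.75 for H3K4me1, and none of them reached a −log10 p-value of 1.3. Aldh1a2 (ENSMUSG00000013584.5, chr9:71215789-71296243, plus strand) has 1 start. It had H3K27ac within 1 kb in all 3 lists, over the start itself in lists 1 and 2 and from 127 bp past it in list 3, with the strongest promoter peak at an enrichment of 1.75, 2.12 and 1.98 in lists 1, 2 and 3, and H3K4me1 in none, nor in the pooled call. That combination was found in 916 genes (4.19%). The promoter windows were covered by H3K27ac for 67.2%, 50.0% and 34.9% of their bases, whereas in the gene body H3K4me1 covered 16.1%, 30.2% and 17.0% of the bases and H3K27ac 11.7%, 11.5% and 6.57%. Within the gene, the 2 marks met most at chr9:71243486-71244917, 27697 bp into the gene, a region touched by peaks of all 6 lists, and next at chr9:71247183-71248563. The 300-base RefSeq promoter of Aldh1a2 had 50 CpG dinucleotides and 78.0% G and C, against medians of 7 and 52.7% for all promoters, and the upstream promoter of Aldh1a1 had 3 and 43.3%. The Aldh1a2 promoter is shown as an example of a CpG-rich start with H3K27ac alone, which covered this stretch in list 1, its end in list 2 and none of it in list 3, from chr9:71215539-71215838 on the plus strand of GRCm38.p6.
Aldh1a2: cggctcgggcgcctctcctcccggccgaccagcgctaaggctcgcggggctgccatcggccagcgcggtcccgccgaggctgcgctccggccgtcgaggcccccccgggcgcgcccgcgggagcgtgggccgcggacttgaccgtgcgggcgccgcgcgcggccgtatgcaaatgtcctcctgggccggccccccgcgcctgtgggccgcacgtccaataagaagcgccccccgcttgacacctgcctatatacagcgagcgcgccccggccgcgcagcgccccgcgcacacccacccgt

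Aldh1a1 had the most distal regions with both marks when peaks of any p-value were kept. Such a region was defined as a stretch under peaks of at least 2 H3K27ac lists that lay outside the promoter windows of protein-coding genes and overlapped a stretch under peaks of at least 2 H3K4me1 lists. There were 57 such regions in 8 of the 9 windows, 17 of them touched by peaks of all 6 lists, and at least 1 region occurred in the windows of 56.8% of all genes. The number fell to 29 without H3K27ac replicate 2, to 37 without H3K27ac replicate 3 and to 7 under the minimum −log10 p-value of 1.3, which left 2 at Aldh1a1, 3 at Rara and 2 at Rxra. The Aldh1a1 window had 20, of which 8 were touched by peaks of all 6 lists, equal to 7.98 per 100 kb, the 97.3rd percentile of all genes. The 2 with the most shared bases were chr19:20535490-20538611, with 2080 bp under both marks, and chr19:20557435-20559341, with 1907 bp. In the former the H3K27ac enrichment was 1.59, 1.69 and 1.78 and the H3K4me1 enrichment 1.72, 1.56 and 1.61 in lists 1, 2 and 3. Of the 20 regions, 15 also overlapped C730002L08Rik, a noncoding transcript on the opposite strand, so they cannot be assigned to Aldh1a1 by position. Aldh1a2 had 6 regions, all intragenic, or 3.32 per 100 kb.

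**Figure D3:**
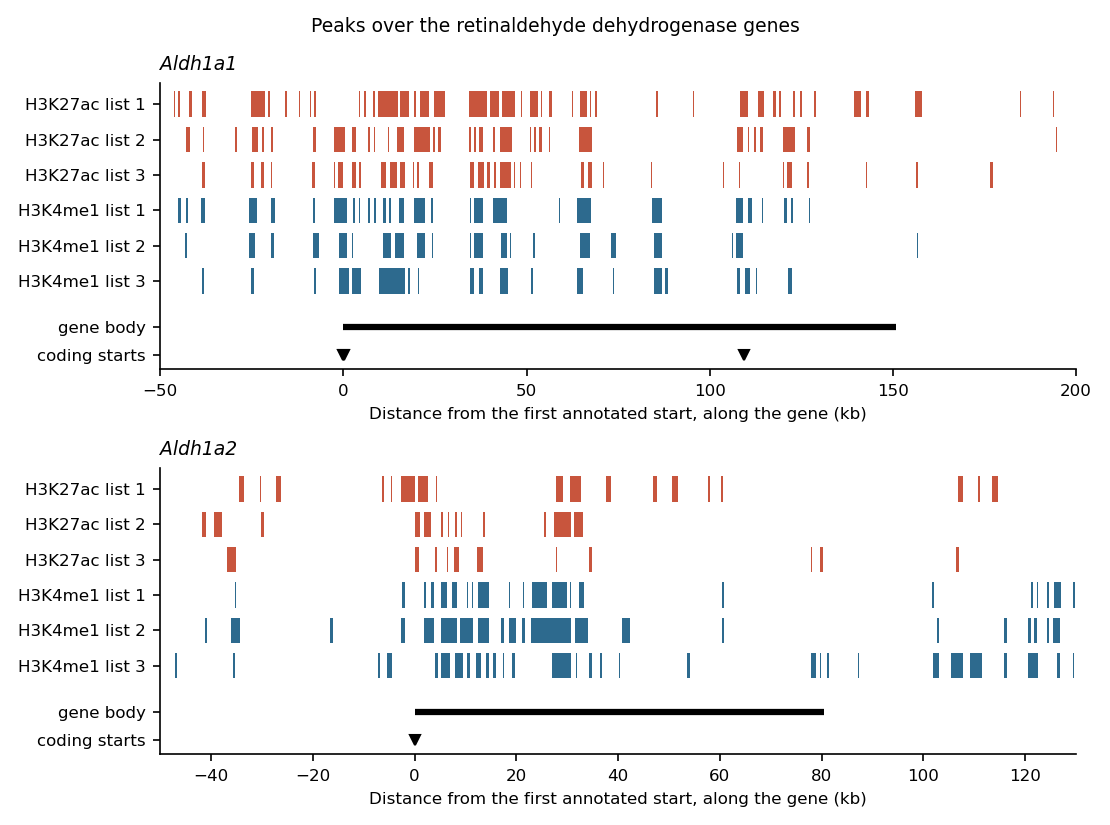
Peaks of the 6 replicate lists over Aldh1a1 and Aldh1a2 with 50 kb on each side, by distance from the first start along the gene (kb), with red bars for H3K27ac, blue bars for H3K4me1, a black line for the gene body and triangles for coding starts. Both marks recur in the first part of Aldh1a1, and at the start of Aldh1a2 there is H3K27ac with H3K4me1 on either side.

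The 2 carriers were marked differently from each other. Crabp2 (ENSMUSG00000004885.5, chr3:87948666-87953376, plus strand), which delivers retinoic acid to the nucleus, had H3K4me1 over its start in all 3 lists, with an enrichment of 2.11, 1.80 and 1.67. H3K27ac was within 1 kb only in list 1, as a 176-bp peak. That exact pattern, H3K27ac in list 1 only and H3K4me1 in all 3 lists, was found in 58 genes (0.265%). Much of the signal in its window belonged to neighbours, since the promoters of Hdgf, Mrpl24, Rrnad1 and Isg20l2 had H3K27ac in all 3 lists, and that of Nes, an intermediate filament gene, had H3K4me1 in 2 and H3K27ac in 0. Its window held 1 region with both marks, 251 bp at chr3:87932747-87932997 inside Isg20l2. Crabp1 (ENSMUSG00000032291.8, chr9:54764748-54773110, plus strand) had no peak at its promoter or in its body in any of the 6 replicate lists. All peaks of its window in these lists were flanking ones, and they included the promoter of Wdr61, which had both marks in all 3 lists, and chr9:54801993-54804518, 37245 bp past its start, which peaks of all 6 lists touched and where 2029 bp were under at least 2 lists of each mark. A second, shorter region with both marks lay at chr9:54801552-54801790.

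Of the receptor genes, Rara had the largest share of its body under each mark, and the largest of the 9 genes. In Rara (ENSMUSG00000037992.16, chr11:98927818-98974942, plus strand), H3K27ac covered 45.8%, 44.6% and 47.2% of the gene body and H3K4me1 65.7%, 63.9% and 60.3%. The marks were divided among its starts. The first start had H3K4me1 within 1 kb in all 3 lists and H3K27ac in none. The starts 9880, 9900 and 11893 bp downstream lay under 1 wide H3K27ac peak in each list, of 9847, 11701 and 8824 bp, with an enrichment of 2.24, 2.41 and 2.16, above 98.1%, 99.2% and 95.9% of the peaks of that list. At the first 2 of these the H3K4me1 peaks stopped short of the start in all 3 lists. The last start, 32594 bp downstream and next to the repeat shown above, had H3K27ac within 1 kb in all 3 lists and H3K4me1 in lists 1 and 3. Between them lay the longest region with both marks of the 9 windows, 5267 bp at chr11:98949654-98954920, touched by peaks of all 6 lists. It overlapped an exon. The next, of 720 bp at chr11:98946484-98947203, was also intragenic, and the window held 9 such regions in all, or 6.12 per 100 kb. The promoters of its neighbours were marked in fewer lists, with H3K27ac in 2 and H3K4me1 in 1 for Cdc6, a replication gene, and the reverse for Gjd3, a connexin.

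Rarb, which is itself a well-known target of retinoic acid, was marked at its internal start. In Rarb (ENSMUSG00000017491.9, chr14:16430839-16819156, minus strand) the starts 243329 and 243613 bp into the gene had both marks within 1 kb in lists 1 and 2, and neither in list 3, the list of each mark called against IgG library 3. The H3K27ac peaks there were 1647 and 1203 bp long with enrichments of 1.90 and 1.71, and the H3K4me1 peaks 1168 and 1514 bp long with enrichments of 1.67 and 1.78. These are the peaks that cover the repeat. Under a minimum −log10 p-value of 1.3 for each peak, Rarb kept a promoter peak in 1 H3K27ac list and 0 H3K4me1 lists. The starts at the 5′ end had H3K27ac in no list and H3K4me1 within 1 kb in lists 1 and 3. Hence the count of 3 H3K4me1 lists for Rarb joined different starts in different lists. Its exact pattern, H3K27ac in lists 1 and 2 and H3K4me1 in all 3, was found in 162 genes (0.741%). The body of 388318 bp was sparsely covered, at 3.61%, 2.15% and 1.01% for H3K27ac and 8.53%, 4.58% and 3.53% for H3K4me1. Its window had 11 regions with both marks, of which 7 lay over the neighbour Top2b, a topoisomerase gene with H3K27ac at its promoter in all 3 lists. These included the largest 2, chr14:16377522-16381622 and chr14:16382360-16385214.

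In Rarg (ENSMUSG00000001288.15, chr15:102234938-102257517, minus strand) acetylation covered both ends of a row of alternative starts. The first start had H3K27ac within 1 kb in all 3 lists and H3K4me1 in list 3 only. The start 11017 bp downstream lay under H3K27ac in all 3 lists, in peaks of 6400, 4916 and 7071 bp with enrichments of 1.99, 2.02 and 2.05, and had H3K4me1 within 1 kb in none. The start at 13928 bp lay under both marks in all 6 lists. The start at 7171 bp, the one beside the repeat, had the opposite pattern, with H3K4me1 within 1 kb in all 3 lists and H3K27ac only in list 3. Rarg was the one window of the 9 with no distal region under both marks. In the same window the promoters of Csad and Zfp740 had both marks in all 3 lists, that of Mfsd5 had H3K27ac in 3 lists and H3K4me1 in 2, and that of Itgb7, an integrin, had 1 and 3, so these neighbours add to the covered share given for Rarg.

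Rxra, the common partner of the receptors, had H3K27ac in all 3 lists near its first starts and more H3K4me1 than H3K27ac in its body. In Rxra (ENSMUSG00000015846.14, chr2:27676440-27762957, plus strand) an H3K27ac peak began 327, 402 and 370 bp downstream of a coding start in lists 1, 2 and 3, with an enrichment of 2.38, 1.97 and 2.16. H3K4me1 was within 1 kb of this start group in list 1 only and near an internal start, 34143 bp downstream, in lists 1 and 2. In the body H3K4me1 covered 31.9%, 23.1% and 17.7% of the bases and H3K27ac 5.20%, 8.73% and 3.08%. The 2 marks did not overlap in range. The window had 5 regions with both marks, the largest at chr2:27773514-27775280, past the 3′ end, and chr2:27679337-27680347, just inside the gene. No other protein-coding promoter lay in this window.

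**Figure D4:**
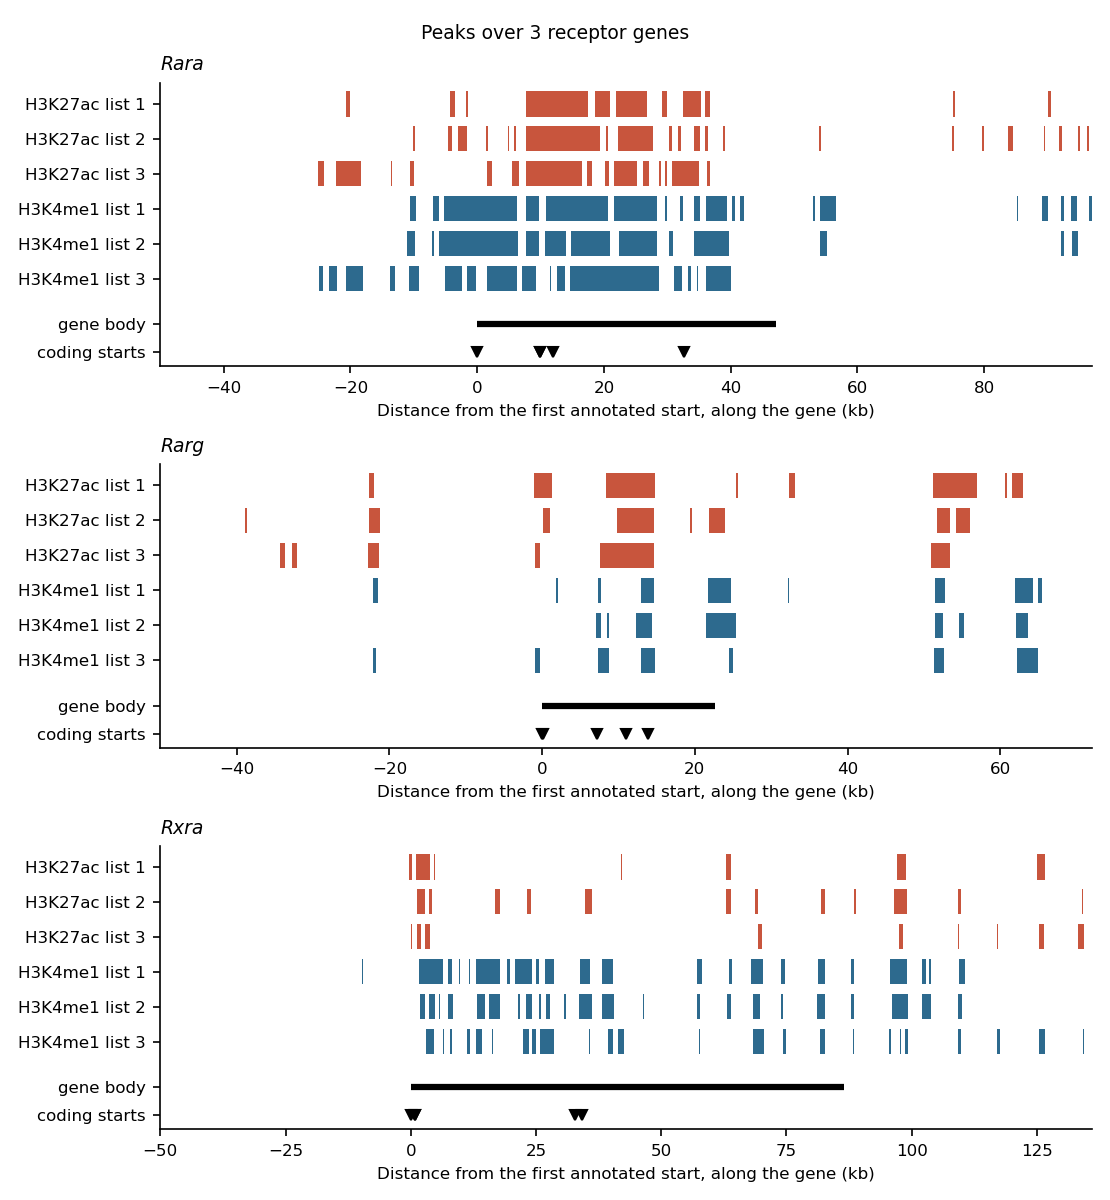
Peaks of the 6 replicate lists over Rara, Rarg and Rxra with 50 kb on each side, by distance from the first start along the gene (kb), with red bars for H3K27ac, blue bars for H3K4me1, a black line for the gene body and triangles for coding starts. Wide H3K27ac peaks lie over internal starts of Rara and Rarg, and in Rxra many H3K4me1 peaks without H3K27ac follow the first starts.

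Cyp26b1 (ENSMUSG00000063415.12, chr6:84571414-84593908, minus strand), which inactivates retinoic acid, had no promoter peak at any of its 5 coding starts, in any replicate list or in either pooled call, in which 56.2% and 56.3% of all genes had one for H3K27ac and H3K4me1. H3K27ac was also absent from its body in all 3 lists, and H3K4me1 covered 6.38%, 2.83% and 7.07% of it in lists 1, 2 and 3, a mean of 5.43% ± 2.27 (SD, n = 3). The 3 regions with both marks in its window were short, 71 to 476 bp, lay upstream, at -44495 to -47520 bp from the nearest coding start, inside Exoc6b, and were headed by chr6:84638403-84638878 and chr6:84641277-84641400.

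To compare the amount of the 2 marks, the share of each window (gene body and 50 kb on each side) under a peak was taken in every list. Rara had the highest mean share for both marks, 16.3%, 18.0% and 19.0% for H3K27ac and 29.9%, 27.3% and 26.8% for H3K4me1 in lists 1, 2 and 3, although Aldh1a1 exceeded it in H3K27ac list 1. The H3K4me1 lists were all above the H3K27ac lists, with a difference of 10.3 percentage points between means. Rxra had 4.43%, 6.02% and 3.39% for H3K27ac and 18.5%, 14.4% and 10.4% for H3K4me1, a mean 3.13 times higher for H3K4me1. Cyp26b1 had 2.72%, 2.85% and 1.66% against 4.90%, 4.16% and 4.84%. In these 3 genes H3K4me1 was higher in every list. Under a minimum −log10 p-value of 1.3 for each peak, H3K27ac minus H3K4me1 went from -10.3 to -9.10 points for Rara. It went from -9.81 to -3.37 for Rxra and from -2.23 to -0.530 for Cyp26b1, whose lists then overlapped. Rarg was the reverse, with 14.8%, 10.9% and 10.5% for H3K27ac and 8.30%, 8.41% and 7.38% for H3K4me1. For the other 5 genes the lists overlapped. Aldh1a1 had 21.4%, 15.3% and 11.4% against 14.5%, 11.2% and 11.4%, and Aldh1a2 had 9.59%, 6.77% and 4.21% against 9.30%, 17.6% and 14.1%. The shares of both enzyme genes thus spread widely between lists of 1 mark. Crabp1 had 6.61%, 6.91% and 5.88% against 8.90%, 5.67% and 7.77%. Crabp2 had 12.8%, 11.6% and 9.35% against 9.78%, 11.1% and 8.06%. Rarb had 7.60%, 3.27% and 3.46% against 9.17%, 5.93% and 5.00%, so that both marks were highest in list 1.

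The marks did not overlap in 4 of the 9 windows, against 31.6% of all genes (13.2% with H3K4me1 above and 18.3% with H3K27ac above). In an exact two-sided permutation test over the 20 assignments of the 6 lists, each of the 4 reached p = 0.1, the smallest value the design allows, and the Benjamini-Hochberg adjusted p over all genes was 0.317, so no difference could pass 0.05. The median share over the 9 windows was 6.85% for H3K27ac and 9.65% for H3K4me1, against 4.97% and 4.45% over all genes, and the median difference, H3K27ac minus H3K4me1, was -1.93 percentage points against 0.160. For the 9 windows it was -0.251 under a minimum −log10 p-value of 1.3 and -0.695 without H3K4me1 replicate 1. H3K27ac list 1 was the longest list and was called against an IgG library that served no H3K4me1 list. Within the lists that shared an IgG library the differences for Rara were -10.6 and -7.86 points, for Rxra -10.4 and -7.02, for Cyp26b1 -1.68 and -3.19, and for Rarg 2.52 and 3.09.

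**Figure D5:**
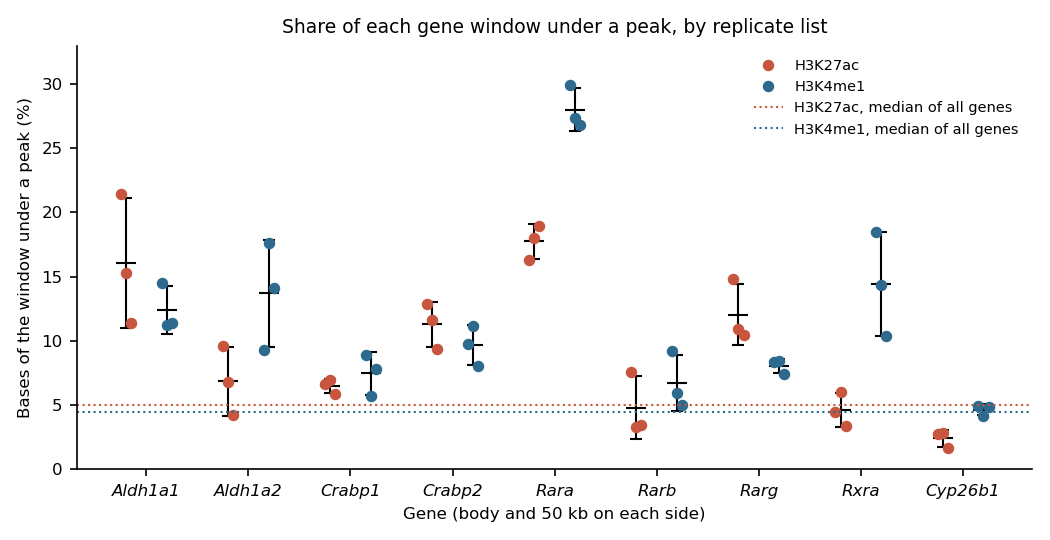
Share of each gene window under a peak (%, y axis) for the 9 genes (x axis), with 1 point per replicate list (red H3K27ac, blue H3K4me1), black bars for mean ± SD (n = 3) and dotted lines for the medians of all protein-coding genes. The blue points lie above the red ones in Rara, Rxra and Cyp26b1 and below them in Rarg.

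The repeats were also searched in the distal regions. The 57 regions, 56.2 kb in all, held 0 matches with any of the 3 spacers. Of all 39000 regions with both marks in the genome, 218 (0.559%), 273 (0.700%) and 151 (0.387%) held a repeat with a spacer of 1, 2 or 5 bases, so that few matches could occur in 57.

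The other genes of the pathway were counted by role. Of 37 further genes, 18 had H3K27ac at a promoter in all 3 lists, 9 had H3K4me1 in all 3, 7 had both and 8 had neither mark in any list, to be read against 45.9%, 27.9%, 24.3% and 32.8% of all genes. All 7 coregulators had H3K27ac in all 3 lists, and 5 of them had H3K4me1 as well, among them the corepressor Ncor1 and the coactivators Ncoa1, Ncoa2 and Med1. Of the remaining enzymes of synthesis and breakdown, Aldh1a3 had no promoter peak in any replicate list, although its window was covered by H3K27ac for a mean of 13.2% and by H3K4me1 for 12.3%. Cyp26a1 had a promoter peak in 1 H3K4me1 list and Cyp26c1 in 1 H3K27ac list. Of the other retinoid X receptors, Rxrb had H3K27ac in all 3 lists and H3K4me1 in none, and Rxrg had neither. Among 8 oxidoreductases, 4 had H3K27ac in all 3 lists, and Rdh5, a retinol dehydrogenase, had both marks in all 6, whereas Rdh12 had none. Among 6 genes of uptake, binding and storage, Rbp4, the plasma carrier of retinol, had both marks in all 6 lists, and Bco1 had none. Of 10 known targets, 5 had H3K27ac in all 3 lists and 0 had both marks in all 6, while Hoxb1, Cdx1 and Stra8 had none.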

How the data were processed

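ChIC-Seq was deposited as 8 peak lists: 1 for each of the 3 H3K27ac and 3 H3K4me1 samples and 1 pooled call per mark. Per the labels, reads were trimmed with cutadapt and aligned with Bowtie2 to GRCm38.p5. Per the file headers, the authors called broad peaks with MACS 2.2.7.1 in paired-end mode with p-value cutoffs of 0.05 and 0.1 and all duplicates kept, scaling the larger library down to the smaller. H3K27ac list 1 used IgG library 1, H3K27ac list 2 and H3K4me1 lists 1 and 2 used IgG library 2, and the third lists used IgG library 3. The deposited pileup is a coverage signal in fragments at IgG depth, averaged over a peak. The deposited fold ratio is that signal over the local IgG background with 1 added to both. The p-value column is deposited as −log10, like that of the q-value, and the latter was 0 for 96.8% to 99.97% of peaks in the replicate lists. Such a q-value holds no ranking and was not used. The low IgG depth limits what a call can resolve.

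Genes and starts were those of GENCODE mouse release 21. All 848817 peaks lay within the GRCm38 chromosomes. A promoter was marked by an overlap of at least 1 bp. Shares were compared by an exact permutation test, adjusted over 21853 genes, in Python 3.11.15 (numpy 2.4.6, pandas 2.3.3). Interval, consensus and permutation code was tested on simulated data. Repeats were searched in RefSeq promoters and the GRCm38.p6 genome. The members and lists were chosen with earlier results of these data known. All 9 genes are described, together with the other pathway genes with a promoter peak in all 6 lists or in none, all further synthesis, breakdown and receptor genes, neighbours with a promoter peak in at least 2 lists of a mark, and the 2 regions per gene with the most bases under both marks. Some pathway genes that met this rule are not reported here.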

Additional observations from a re-analysis of the deposited data

How the results depend on the processing

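Of 196 values recomputed for 15 results under other settings, 183 stayed within 1.5 times the count, within 1 SD of the median or on the same side of 0 for the difference of a single gene. Some of the 183 could not change. These included values taken with the replicate number as a block and promoter counts of 1 mark without a list of the other. A minimum −log10 p-value of 1.3 for each peak left 3 genes with H3K27ac, 1 with H3K4me1 and 1 with both marks at the promoter in all lists, and 7 distal regions with both marks. The same filter left 30.2%, 5.03% and 3.98% of all genes. Under it the median difference in covered share was -0.251 points. The lists of the 2 marks came to overlap at Cyp26b1 (-0.530 points) and to separate at Rarb and Crabp2. The difference was -3.37 points at Rxra and 8.02 at Rarg. Starts of basic transcripts alone gave 3 genes with H3K4me1, and the pooled calls gave 5 with both marks. Requiring all 3 lists gave 22 distal regions. Leaving out 1 list at a time gave 5 to 6 genes for H3K27ac, 5 to 6 for H3K4me1, 3 to 4 for both, 4 to 6 windows without overlap, a median difference of -2.38 to -0.695 points and 29 to 48 distal regions. The lowest numbers of regions were 29 without H3K27ac replicate 2 and 37 without H3K27ac replicate 3. Whichever list was left out, both remaining lists of its mark had to agree, and why these 2 settings fell most was not tested. The difference in covered share changed sign for Aldh1a1 under a pileup of at least 5 times the mean coverage (-0.811 points) and within IgG library 3 (-0.0423), for Crabp1 under the p-value filter (1.12), and for Crabp2 with flanks of 10 kb (-3.26). The lists of the marks overlapped at these 3 genes in the values given, and separated at each of them under at least 1 other setting, such as Crabp2 and Aldh1a1 without H3K27ac replicate 3 and Crabp1 without H3K4me1 replicate 2. The cause was not tested.

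Replicate numbers were shared by the marks, and the deviations of same-numbered lists correlated at -0.0881, 0.319 and 0.468 for numbers 1, 2 and 3. Lists 2 of both marks shared IgG library 2 and lists 3 shared IgG library 3. H3K27ac list 2 and H3K4me1 list 1 also shared IgG library 2 and correlated at 0.354. Pairing by number and the shared control therefore cannot be told apart. Taking the replicate number as a block cannot change the median difference of -1.93 points. Nor can it change the 3 genes with both marks in every numbered pair. The exact sign-flip permutation test over 3 pairs could not go below p = 0.25. Rara, Rarb, Rarg, Rxra, Crabp2 and Cyp26b1 reached that value. The depth of the IgG libraries, 3110985 to 3713369 fragments, limits every call.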
